A study of Mus musculus with 4 samples.

Results

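Macrophages carry a set of enzymes that make or remove the small molecules of their effector response. The transcripts of 10 such genes, *Nos2*, *Irg1* (named *Acod1* in newer tables), *Ptgs2*, *Arg1*, *Arg2*, *Sod2*, *Gch1*, *Ch25h*, *Cybb* and *Ido1*, were followed in J774 cells, a mouse monocyte-macrophage line, treated with proteasome inhibitors. The genes were chosen by name, with earlier results of these data known. A probe belonged to a gene when its transcript accession had that gene's symbol in the RefSeq table. They are 10 of 20144 genes that could be named on the arrays and had 11 probes, 2 of them for *Gch1*.

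Cells of the J774.1 line were cultured for 4 hours with MG132, with epoxomicin, an inhibitor of the 20S proteasome, or with ONX0914, an inhibitor of the β5 and β5i subunits, each at 1 μM, and control cells received the solvent DMSO. One culture of each kind was hybridized to 1 single-color (Cy3) array, all 4 arrays lying on 1 slide, so no difference could be checked in a replicate or given a P value. For the ONX0914 array the label gives ONX-0912 as treatment, but ONX0914 is the compound of the protocol and of the paper, and that name is used here. J774 is a single transformed line, and the arrays measured transcripts and not enzyme activity or product.

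Inflammatory stimuli such as bacterial lipopolysaccharide and interferon-γ are known to induce most of these genes in macrophages. Inducible nitric oxide synthase (*Nos2*) and the arginases (*Arg1* in the cytosol, *Arg2* in mitochondria) compete for arginine, and *Gch1* makes the first intermediate of tetrahydrobiopterin, the cofactor of nitric oxide synthases. *Acod1* draws itaconate from the citric acid cycle, *Ptgs2* starts inducible prostaglandin synthesis, *Ch25h* hydroxylates cholesterol to an oxysterol, and *Ido1* opens the kynurenine route of tryptophan. *Cybb* encodes the catalytic subunit of the phagocyte NADPH oxidase, which makes superoxide, and *Sod2* the manganese superoxide dismutase of mitochondria.

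*Ptgs2*, *Acod1* and *Gch1* were at least 2-fold above DMSO with every inhibitor, and their promoters are given for this reason, as windows of 250 bases before to 50 after the annotated start, taken from RefSeq on GRCm38.p6 and written 5′ to 3′ on the strand of the gene. The *Ptgs2* window is chr1:150099781-150100080 on the plus strand, the *Acod1* window chr14:103046762-103047061 on the plus strand and the *Gch1* window chr14:47189364-47189663 on the minus strand. Capitals mark matches to any of 8 motifs searched on both strands.
Ptgs2: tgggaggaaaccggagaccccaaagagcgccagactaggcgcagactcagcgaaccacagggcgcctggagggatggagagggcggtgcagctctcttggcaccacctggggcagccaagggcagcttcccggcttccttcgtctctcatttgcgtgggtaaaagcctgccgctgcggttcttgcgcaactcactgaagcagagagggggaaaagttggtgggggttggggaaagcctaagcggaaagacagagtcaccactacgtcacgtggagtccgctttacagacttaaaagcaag
Acod1: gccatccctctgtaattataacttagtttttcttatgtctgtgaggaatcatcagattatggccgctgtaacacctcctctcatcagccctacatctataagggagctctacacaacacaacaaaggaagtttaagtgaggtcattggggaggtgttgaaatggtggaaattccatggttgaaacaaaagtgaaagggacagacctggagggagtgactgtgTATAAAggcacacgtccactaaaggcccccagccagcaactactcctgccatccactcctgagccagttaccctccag
Gch1: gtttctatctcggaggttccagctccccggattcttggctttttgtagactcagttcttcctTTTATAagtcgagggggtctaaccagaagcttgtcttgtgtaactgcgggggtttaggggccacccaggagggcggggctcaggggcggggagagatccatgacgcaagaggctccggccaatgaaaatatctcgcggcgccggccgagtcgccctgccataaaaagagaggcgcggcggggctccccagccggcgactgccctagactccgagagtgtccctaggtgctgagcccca
The motifs were an NF-kB type motif, an interferon response element type motif, TTCNNNGAA (STAT type), TGACNNNGC (antioxidant response element type), TGATGNAA (ATF4 type), TGACGTCA (a cyclic AMP response element), TATAAA (the core of the promoter element known as the TATA box) and the motif of the AP-1 factors, which was searched as TGANTCA. The only matches in the 3 windows were to TATAAA, 28 bases before the start of *Acod1* and, on the opposite strand, 188 bases before the start of *Gch1*. TATAAA occurred in 13.6% of all 32851 promoter windows of the table, and the *Ptgs2* window held no match to any motif. Windows of 3 further genes were in the table. *Ch25h* matched TGACGTCA at 61 bases before the start (1.79% of all windows) and TATAAA at 151 bases. *Cybb* matched the interferon response element type motif at 3 places (3.44% of all windows) and TGANTCA at 1 place (7.81%), and *Sod2* matched TTCNNNGAA at 1 place (8.3%). The other motifs had no match in the 6 windows, and among all windows the NF-kB type motif occurred in 1.63%, the antioxidant response element type in 12.4% and the ATF4 type in 3.97%. No match overlapped another. A match describes letters in this window and no binding, and the other 4 genes, *Nos2*, *Arg1*, *Arg2* and *Ido1*, are named only.

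Signals are the spot brightness after background subtraction by the scanner software. A probe printed once has 1 spot, and *Acod1* and *Ptgs2* had probes printed 10 times, whose spots were averaged on the log2 scale after spots marked as outliers had been left out. For a difference, the log2 signal of each array was first reduced by that array's 75th percentile. Of the 10 genes, 7 were well above background on all 4 arrays and 3 on none, against 63.2% and 28.6% of all genes. Signals of different probes are not comparable with each other, so each gene was compared only with itself. In a whole culture, fewer expressing cells and less RNA per cell cannot be told apart. The software gave an error of about 10.0% for signals well above background, which makes 0.20 to 0.21 for a log2 difference. The median SD between spots of 1 probe was 0.0556 to 0.0615 on the log2 scale. The software's error was nearly the same for all 7 of these genes and was not reduced for probes with several spots. Neither value covers the spread between cultures.

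The cell line was checked against markers. All 11 macrophage markers with a named probe were well above background on every array, among them *Csf1r*, *Adgre1*, *Itgam* and *Cd14*, and *Cd68* was not analysed here. Their median log2 difference from DMSO was −0.16 under MG132, −0.15 under epoxomicin and −0.03 under ONX0914, with *Mertk* higher under MG132 (1.04) and *Lyz2* lower under epoxomicin (−1.01) by at least 2-fold. *Spi1* and *Tyrobp* differed by −0.98 and −0.79 under epoxomicin. Of 12 markers of other cell types, 7 were on no array well above background. *Cd3e*, *Col1a2*, *Pecam1* and *Cdh5* were so on all 4 arrays, with *Cd3e* at 604 to 849. The keratin gene *Krt8* had a signal of 4.16 under DMSO and 5.29 under ONX0914, not well above background, and of 37.8 under MG132 and 121 under epoxomicin. The summed signal of the 12 markers was 1184 under DMSO, 1145 under MG132, 1037 under epoxomicin and 1099 under ONX0914. The part of these macrophage and other markers in the differences reported here was not tested.

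**Figure D1:**
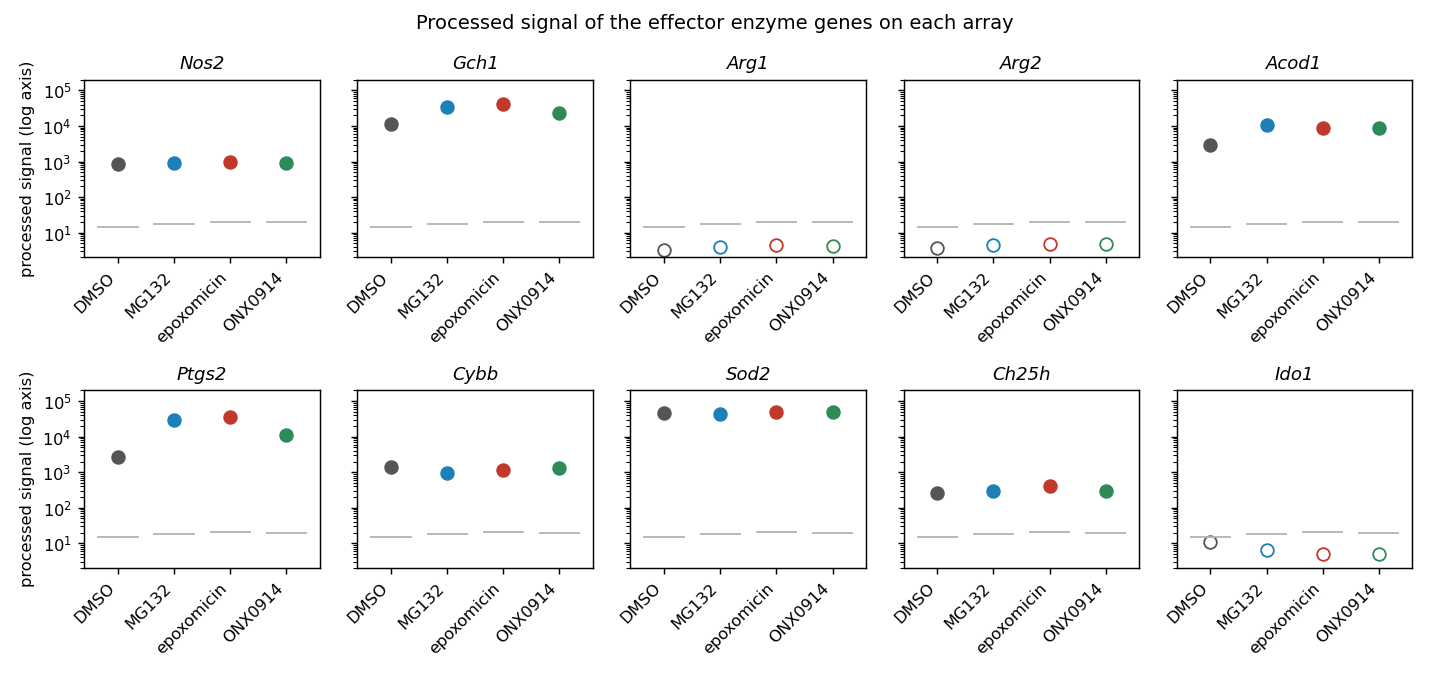
Processed signal (vertical log axis, scanner units) of the 10 enzyme genes on the DMSO, MG132, epoxomicin and ONX0914 arrays, 1 point per array, with open points where the signal was not well above background and grey lines at the lowest signal well above background on that array. *Arg1*, *Arg2* and *Ido1* lie below the lines on every array, with signals of at most 10.7, and levels of different genes cannot be set against each other.

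*Ptgs2*, *Acod1* and *Gch1* were the 3 genes of the set that were at least 2-fold above DMSO, and they were so with each inhibitor. Of all genes compared with every inhibitor, 2.02% were at least 2-fold higher with all 3 inhibitors. In all, 3 of 10 genes (3 of the 7 compared) were higher and 0 lower under MG132, under epoxomicin and under ONX0914. Among all genes compared, 7.25% were at least 2-fold higher under MG132, 8.41% under epoxomicin and 3.27% under ONX0914, and 3.66%, 4.5% and 1.41% were lower in the same order. The median log2 difference of the 7 genes was 0.43 under MG132, 0.67 under epoxomicin and 0.24 under ONX0914, against −0.02, −0.04 and −0.01 for all genes compared. The 3 comparisons share the DMSO array. Because the genes were chosen with earlier results of these data known, these counts and medians only describe the list.

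*Ptgs2*, the inducible cyclooxygenase gene (NM_011198), had a signal of 2638 under DMSO, 30092 under MG132, 35099 under epoxomicin and 11276 under ONX0914. All inhibitor arrays were above the control, with the signal of ONX0914 between those of DMSO and of the other inhibitors. The log2 difference from DMSO was 3.70 under MG132, 3.71 under epoxomicin and 2.13 under ONX0914, or 13.0-fold, 13.1-fold and 4.38-fold higher. Among the 12728 genes well above background on all arrays, these differences ranked 30, 46 and 59 from the highest. The spots of the probe were tightly grouped, with 9, 8, 9 and 8 spots used on the DMSO, MG132, epoxomicin and ONX0914 arrays. The highest DMSO spot was at 2859 and the lowest ONX0914 spot at 10837, so no spot of an inhibitor array overlapped the control.

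*Acod1*, which encodes the itaconate-forming enzyme (NM_008392), had a signal of 2923 under DMSO, 10409.7 under MG132, 8520.5 under epoxomicin and 8513 under ONX0914. It was higher with each inhibitor, and here MG132 gave the highest signal. The log2 differences were 2.02 (4.05-fold) under MG132, 1.52 (2.87-fold) under epoxomicin and 1.58 (2.99-fold) under ONX0914. They ranked 202, 423 and 118 among the same 12728 genes. All 10 spots were used on each array, with an SD between spots of 0.0397 under DMSO, 0.0469 under MG132, 0.0419 under epoxomicin and 0.0646 under ONX0914 on the log2 scale. The highest DMSO spot was at 2990.5 and the lowest inhibitor spot at 7775.

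**Figure D2:**
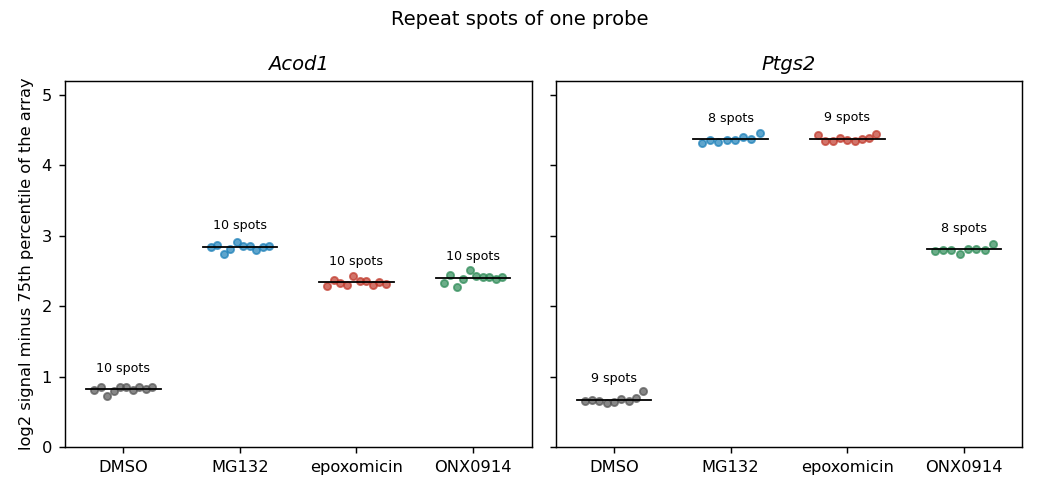
Each point is a spot of the *Acod1* or *Ptgs2* probe on 1 array, as the log2 signal minus the 75th percentile of the array (vertical axis), and lines are the mean of the spots used. Spots of an array lie close together. On this scale those of MG132 and epoxomicin overlap for *Ptgs2*, and those of epoxomicin and ONX0914 for *Acod1*. The spots are repeat readings of 1 RNA sample and not replicate cultures.

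*Gch1*, the first enzyme of tetrahydrobiopterin synthesis (NM_008102), had probes that differed in brightness. The brighter one, which stands for the gene, gave 11661 under DMSO, 33774 under MG132, 42613 under epoxomicin and 23049 under ONX0914. Its log2 differences were 1.72 (3.30-fold), 1.84 (3.59-fold) and 1.02 (2.03-fold) in the order MG132, epoxomicin and ONX0914. The last value lay at the 2-fold threshold: with 3 alternative settings it was 0.97 to 0.99. The dimmer probe gave 576 under DMSO, 2267 under MG132, 2986 under epoxomicin and 1556 under ONX0914, and larger differences of 2.16, 2.35 and 1.47. Both probes placed epoxomicin first and ONX0914 last.

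Nitric oxide synthase itself was near the control. *Nos2* (NM_010927) had a signal of 849 under DMSO, 937 under MG132, 999 under epoxomicin and 880.4 under ONX0914. The log2 differences were 0.33, 0.21 and 0.09, of which the first exceeded the software's error of 0.20, the second lay at it and the third was below it. With normexp on all spots, which models spot and background brightness together, the values became 0.09, −0.06 and −0.09, all below that error in size. In that setting the median of all genes compared was −0.27, −0.30 and −0.17, beside which its values below are to be read. Normexp without outlier spots gave 0.30, 0.14 and 0.11. The cofactor gene *Gch1* was at least 2-fold higher on arrays where *Nos2* was at most 1.26-fold higher.

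The arginase genes were well above background on no array. *Arg1* (NM_007482) had 3.23 under DMSO, 3.91 under MG132, 4.43 under epoxomicin and 4.28 under ONX0914. *Arg2* (NM_009705) had 3.75, 4.51, 4.90 and 4.89 in the same order. The lowest signal well above background on these arrays was 14.7 under DMSO, 17.8 under MG132, 20.3 under epoxomicin and 19.3 under ONX0914. *Ido1* (NM_008324) was below it as well, with 10.7 under DMSO, 6.52 under MG132, 5.04 under epoxomicin and 4.96 under ONX0914. A difference of these 3 genes was not detectable at such signals, and none is given.

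The oxysterol enzyme gene *Ch25h* (NM_009890) had a signal of 258 under DMSO, 305 under MG132, 418 under epoxomicin and 298 under ONX0914. Every inhibitor array was above the control, by 0.43, 0.67 and 0.24 on the log2 scale, and none reached 2-fold. Normexp on all spots gave −0.12 under MG132, 0.01 under epoxomicin and −0.32 under ONX0914, whereas normexp without outlier spots kept the sign, with 0.40, 0.53 and 0.20.

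Genes of superoxide production and removal lay near the control. *Cybb* (NM_007807) was the only one of the 7 compared genes below DMSO with all inhibitors, with a signal of 1413 under DMSO, 975 under MG132, 1136 under epoxomicin and 1347 under ONX0914. The log2 differences were −0.35, −0.34 and −0.03, the last within the software's error. *Sod2* (NM_013671) had a signal of 45261 under DMSO, 42182 under MG132, 49918 under epoxomicin and 48544 under ONX0914. Its differences of 0.09, 0.12 and 0.14 were all below that error, and the value under MG132 was −0.10 without scaling between arrays and −0.01 with a shift to the median.

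**Figure D3:**
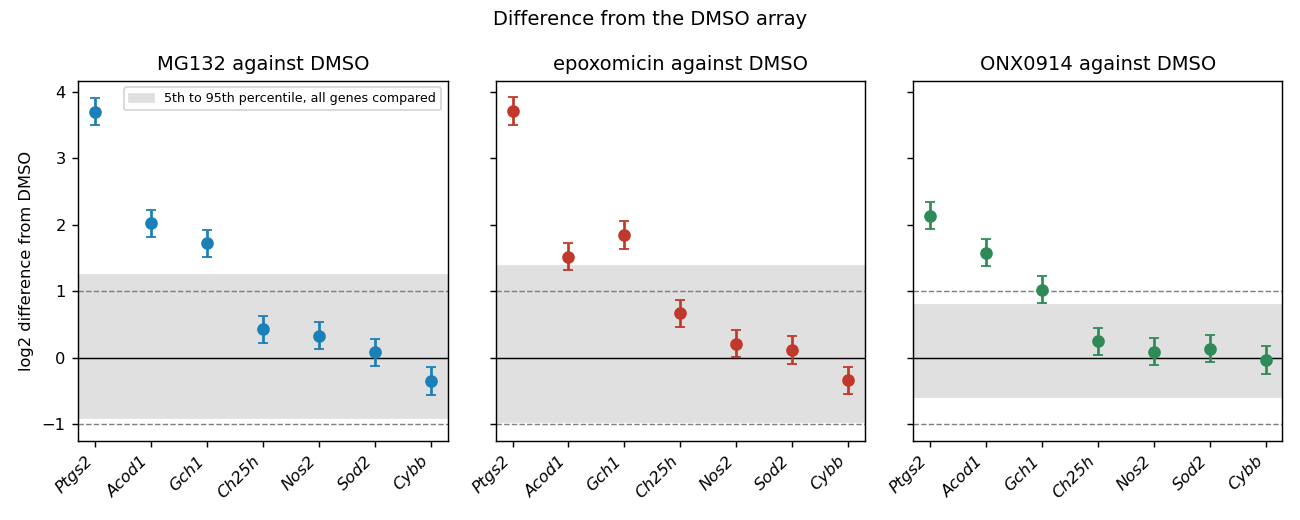
Points are the log2 difference from the DMSO array (vertical axis) of the 7 genes well above background, 1 panel per inhibitor, bars are the software's error, dashed lines mark 2-fold, and the grey band holds the central part of all genes compared, from the 5th to the 95th percentile. *Ptgs2*, *Acod1* and *Gch1* lie above the band with each inhibitor, and *Ch25h*, *Nos2*, *Sod2* and *Cybb* lie within it.

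The inhibitors, given at the same dose for the same time, were also set against each other. *Ptgs2* was the only gene of the 7 that differed by 2-fold between inhibitors. Its signal was 2.96-fold lower under ONX0914 than under MG132 and 2.98-fold lower than under epoxomicin, a log2 difference of −1.57 and −1.58. Of all genes compared, 3.05% were at least 2-fold lower under ONX0914 than under MG132 and 4.38% than under epoxomicin, and 1.07% and 1.56% were higher. Between epoxomicin and MG132, 0.785% were higher and 0.719% lower under epoxomicin. MG132 and epoxomicin differed for *Ptgs2* by 0.01, with an SD between single spots of 0.0361 to 0.0421. This small difference depends on the scaling between arrays, since the unscaled signals were 30092 under MG132 and 35099 under epoxomicin. *Gch1* was also lower under ONX0914, by −0.70 against MG132 and −0.82 against epoxomicin.

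*Acod1* did not follow that order. It was 0.50 lower under epoxomicin than under MG132 on the log2 scale (−0.50) and 0.44 lower under ONX0914 than under MG132 (−0.44). Between epoxomicin and ONX0914 it differed by 0.06. The size of these *Acod1* differences depends on the scaling between arrays. The unscaled signals were 10409.7 under MG132, 8520.5 under epoxomicin and 8513 under ONX0914, also highest under MG132. The SD between single spots was 0.0419 under epoxomicin and 0.0646 under ONX0914, which is not the error of a mean of 10 spots. Among the 12728 genes, 1.72% had a more negative difference between epoxomicin and MG132 than *Acod1*. *Ch25h* was highest under epoxomicin, by 0.24 against MG132, and *Cybb* was higher under ONX0914 than under MG132 (0.32) or epoxomicin (0.31). *Nos2* and *Sod2* differed by at most 0.24 between inhibitors. The design has no measure of the spread between cultures for these differences.

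The genes with the most similar pattern were sought for the 3 genes at least 2-fold above DMSO, by the root mean square distance between the log2 differences with the 3 inhibitors, over 12727 other genes well above background on all 4 arrays. For *Gch1* these were *Gtse1* (distance 0.02), *Oas1a* (0.02) and *Slc19a2* (0.04). These distances are below the median SD between spots of 1 probe, 0.0556 to 0.0615. They also hold for the brighter *Gch1* probe only, since the dimmer one gave 2.16, 2.35 and 1.47 and was not searched. For *Acod1*, they were *Osgin1* (0.13), *Slc22a4* (0.13) and *Als2cl* (0.15). For *Ptgs2*, the distances were larger, with *Mdm2* (0.19), *Slfn4* (0.20) and *Cxcl2* (0.23). *Mdm2* differed from DMSO by 3.92, 3.92 and 2.24, *Slfn4* by 3.41, 3.90 and 2.15 and *Cxcl2* by 3.75, 3.32 and 2.20 in the order MG132, epoxomicin and ONX0914.

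The enzymes act beside many others, and 93 further genes were listed, all with a probe and 77 of them comparable with each inhibitor. They are genes of the same pathways and 8 other markers of alternative activation, together called pathway genes here. Of these 77 genes, 7 (9.09%) were at least 2-fold higher and 3 (3.90%) lower under MG132. With epoxomicin, 8 (10.4%) were higher and 5 (6.49%) lower, and under ONX0914, 1 (1.30%) was higher and 1 (1.30%) lower. Among all genes, the shares higher were 7.25%, 8.41% and 3.27% and the shares lower 3.66%, 4.5% and 1.41%. The median differences of the pathway genes were −0.16, −0.20 and −0.01.

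In the arginine, nitric oxide and polyamine list, 2 of 14 comparable genes were higher under MG132 and epoxomicin, 0 under ONX0914 and 0 lower. *Sat1*, which acetylates polyamines for their removal, had a signal of 3656 under DMSO, 10767 under MG132, 22735 under epoxomicin and 5287 under ONX0914, with differences of 1.75, 2.61 and 0.57. *Slc7a1*, an arginine transporter, differed by 1.35, 1.33 and 0.77. The inducible arginine transporter gene *Slc7a2*, at a signal of 49.0 under DMSO, differed by 0.33, 0.34 and 0.19. *Ass1* and *Asl*, which rebuild arginine from citrulline, stayed within 2-fold, with *Ass1* at 0.26, −0.60 and 0.15. Of the other nitric oxide synthases, *Nos3* differed by 0.54, 0.80 and 0.29, and *Nos1* was well above background on no array. With normexp on all spots, *Slc7a2* and *Nos3* turned below DMSO, the former to −1.06, −1.21 and −1.43 and the latter to −0.34, −0.10 and −0.48.

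In the tetrahydrobiopterin list, which holds the steps after *Gch1* and the recycling of the cofactor, 1 of 6 genes was at least 2-fold higher under MG132 and 0 lower, 1 was higher and 1 lower under epoxomicin, and 0 passed this threshold under ONX0914. The median differences were −0.30, −0.36 and −0.13. *Pts*, the next enzyme of the route, differed by −0.37, −0.31 and −0.03. *Spr*, the last enzyme, had a signal of 6671 under DMSO, 4992 under MG132, 1874 under epoxomicin and 3835 under ONX0914. It was at least 2-fold lower under epoxomicin (−1.86), and differed by −0.23 under MG132 and −0.76 under ONX0914. *Gchfr*, whose product is the feedback regulator of the *Gch1* enzyme, differed by −0.43, −0.47 and −0.07.

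Among 10 genes of the citric acid cycle and its transporters around the branch to itaconate, none reached 2-fold in either direction with any inhibitor. *Cs*, citrate synthase, differed by −0.07, −0.04 and 0.01. The lowest values of the list were those of *Idh1*, at −0.68 under MG132 and −0.66 under epoxomicin.

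The eicosanoid list had 0 of 14 comparable genes higher with any inhibitor. *Ptgs1*, the constitutive cyclooxygenase gene, had a signal of 26274 under DMSO, 12064 under MG132, 12818 under epoxomicin and 17752 under ONX0914. It lay below DMSO on each array while *Ptgs2* lay above, with differences of −0.94, −1.06 and −0.53. *Hpgds*, a prostaglandin D synthase gene, was at least 2-fold lower under MG132 (−1.35) and epoxomicin (−1.77) and differed by −0.88 under ONX0914. *Pla2g4a*, which releases arachidonic acid, was within 0.23 of DMSO on every array. For *Ptges*, the inducible prostaglandin E synthase gene, the probes disagreed: the brighter one, which stands for the gene, gave 0.20, 0.22 and −0.01, and the other, with a signal of 21.3 under DMSO, gave 1.31, 1.79 and 0.60.

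None of the 14 comparable genes of the oxidase and superoxide list reached 2-fold with any inhibitor. *Cyba*, the membrane partner of the *Cybb* protein, differed by −0.31, −0.46 and −0.08, close to *Cybb* itself. Of the cytosolic subunit genes, *Rac2* was the lowest, at −0.78, −0.87 and −0.22, and *Rac1* differed by −0.36, −0.26 and −0.01. *Ncf1* differed by 0.13, −0.12 and 0.27 and *Ncf4* by −0.22, −0.30 and −0.11. *Sod1*, the cytosolic superoxide dismutase gene, was higher by 0.25, 0.25 and 0.40, and *Sod3*, the extracellular one, was well above background on no array.

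In the oxysterol list, *Gpr183*, the receptor gene for oxysterols made downstream of *Ch25h*, was lower with every inhibitor. Its signal was 1593 under DMSO, 465 under MG132, 594 under epoxomicin and 607 under ONX0914, with differences of −1.59, −1.45 and −1.36. Of all genes, 1.01% were at least 2-fold lower with all 3 inhibitors. *Insig1*, a sterol sensor gene, was 1.03 higher under epoxomicin and differed by 0.62 under MG132 and −0.66 under ONX0914.

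In the tryptophan list, *Ido2* and *Tdo2*, which encode the other enzymes of the step of *Ido1*, were well above background on no array. *Kmo*, a later enzyme of the kynurenine route, had faint signals of 69.1 under DMSO, 148 under MG132, 204 under epoxomicin and 118 under ONX0914. Its differences were 1.28, 1.54 and 0.81, and with normexp on all spots they were −0.25, −0.18 and −0.63. The other *Kmo* probe was well above background only under epoxomicin (24.8) and ONX0914 (20.6). There it was above DMSO by at least 0.73 and 0.52. *Kyat3*, a kynurenine aminotransferase gene, was lower by −1.64 and −1.57 and differed by −0.41 under ONX0914. *Slc3a2* and *Slc7a5*, the chains of a transporter of large neutral amino acids, were higher by 1.44, 1.33 and 0.99 and by 1.20, 1.12 and 1.03, but the other *Slc7a5* probe gave 0.51, 0.25 and 0.41.

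Of the other markers of alternative activation, the state with which *Arg1* is associated, 5 of 8 were comparable. *Tgm2* was higher by 1.11 under MG132 and 1.61 under epoxomicin and differed by 0.71 under ONX0914, and its other probe gave 2.07, 2.77 and 1.24. With normexp on all spots, the *Tgm2* value was −0.29 under MG132 and −0.66 under ONX0914. *Chil3*, *Clec10a*, *Mgl2* and *Pparg* stayed within 2-fold, and *Retnla*, *Mrc1* and *Cd163* were well above background on no array.

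**Figure D4:**
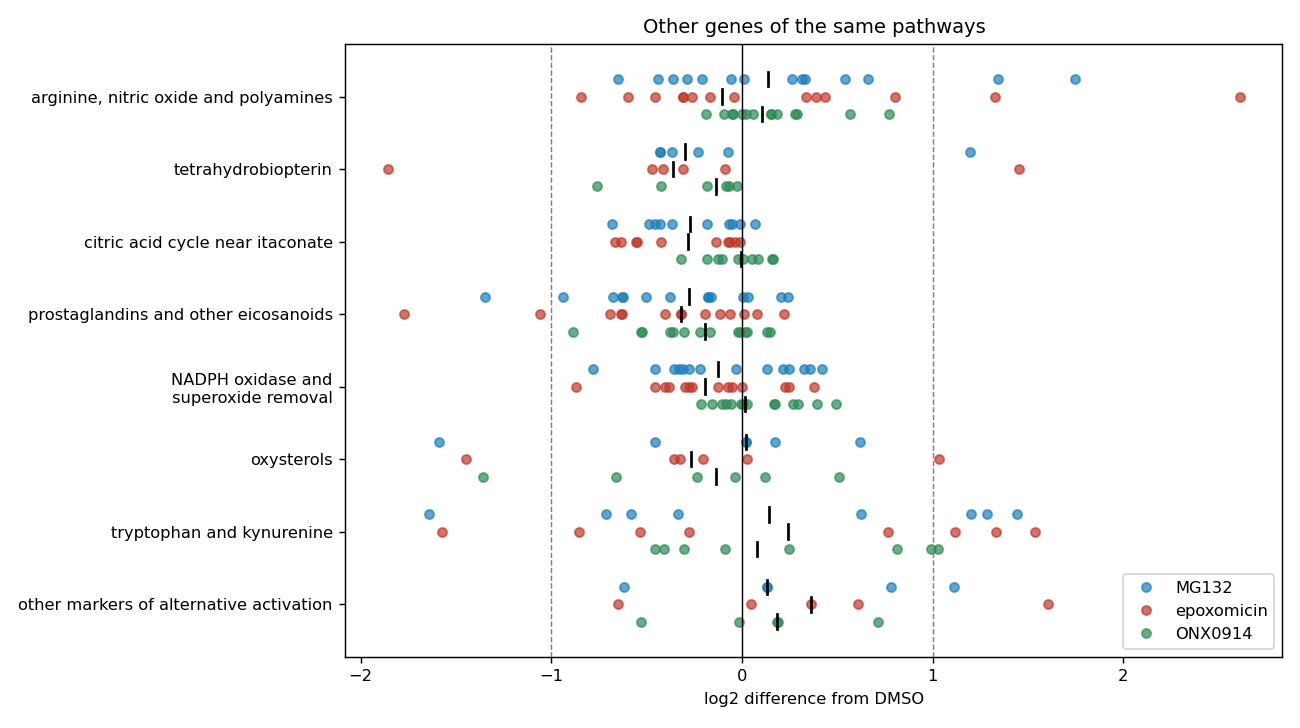
Points are other genes of the pathways in which the enzymes act and other markers of alternative activation, by list (vertical axis). They show the log2 difference from DMSO (horizontal axis) for MG132, epoxomicin and ONX0914, bars are the medians and dashed lines mark 2-fold. Most points lie within 2-fold, with *Sat1* at 2.61 under epoxomicin the highest and *Spr* at −1.86 under epoxomicin the lowest.

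**Figure D5:**
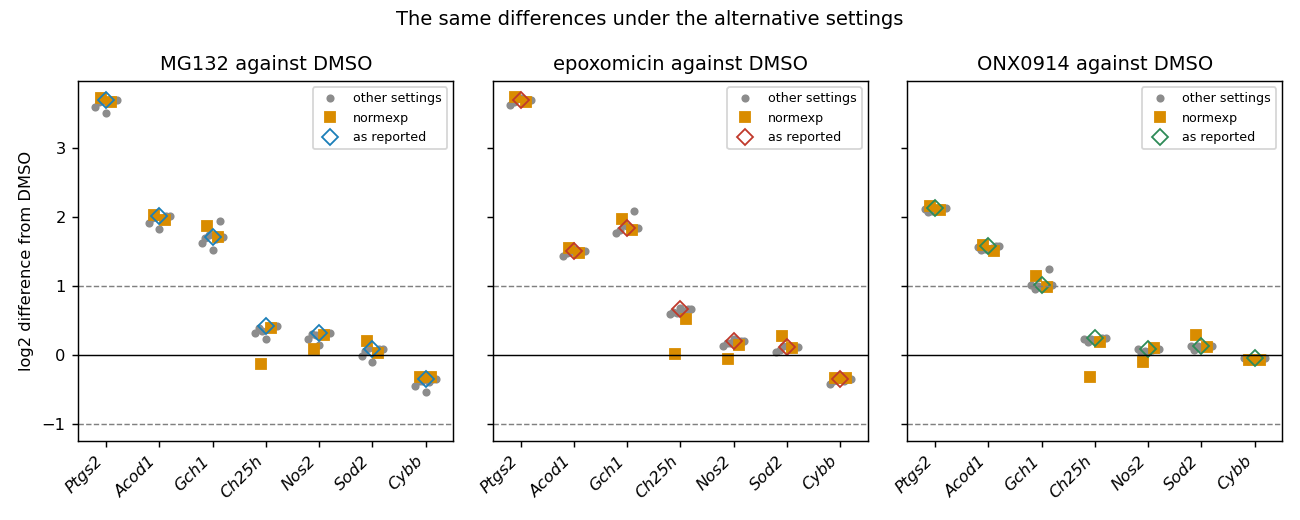
Diamonds are the reported log2 differences from DMSO (vertical axis) of the 7 genes, squares are the normexp settings and grey points the other alternative settings, 1 panel per inhibitor, with dashed lines at 2-fold. *Ptgs2* and *Acod1* stay above 2-fold throughout, *Gch1* lies on the line under ONX0914, and values cross 0 for *Ch25h* under MG132 and ONX0914 and *Nos2* under epoxomicin and ONX0914 (normexp on all spots) and for *Sod2* under MG132 (no scaling, shift to the median).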

How the data were processed

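RNA of 4 J774 cultures (DMSO, MG132, epoxomicin, ONX0914) was measured on 4 single-color arrays. The intensity of every spot, with the local background removed by Feature Extraction 10.7.1.1, was deposited by the authors beside the 0 or 1 calls of that software. No scaling between arrays had been applied. The paper names a human design, whereas the file headers name a mouse build (mm9). The authors also deposited log2 values made with GeneSpring (39483 entries, column medians −0.0475, 0.0180, −0.0186 and 0.0134 in the order above), used as an alternative. Centered on each probe's median, they correlated with the scanner values at 0.99968 or more over 22418 probes, with slopes of 0.997 to 1.00; the GeneSpring settings are not given in the sources used here.

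Control spots and 159 to 194 outlier spots per array were left out. The log2 signal minus the 75th percentile of the array was averaged over spots of a probe. Of 39429 probes, 26581 (67.4%) received a gene symbol from mouse RefSeq (GRCm38.p6), and the probe with the highest mean stood for a gene. A comparison took genes that either array had well above background, with a bound in place of a dim signal where the bound left a difference. No spot was saturated. The members and gene lists were chosen with earlier results of these data known. Named genes are the members, listed genes at least 2-fold from DMSO, isozymes and subunits of members, and the 3 genes nearest in pattern, apart from some that are not reported here. Genes given as examples of lists that stayed within 2-fold, *Krt8* and the named macrophage markers, were chosen after their values were seen. Normexp (offset 50) models spot and background brightness together and used median pixel signals, once on all spots and once without outlier spots. Calculations were tested on simulated data and ran in R 4.3.3 (limma 3.58.1) and Python 3.11.15 (pandas 2.3.3, numpy 2.4.6, matplotlib 3.10.9).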

Additional observations from a re-analysis of the deposited data

How the results depend on the processing

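No paired analysis was possible because each condition had 1 array, and no array could be left out for the same reason. A change under an alternative was called a move from 0.0870 on the log2 scale, the largest median SD between spots times the square root of 2. Of 189 recomputed differences of the 7 enzyme genes, 159 moved by less than this and 30 by more. The 159 include values that could not move. All 7 genes were well above background, so replacing bounds by the processed signal could change none of them. Averaging over probes could change only *Gch1*, the 1 gene with more than 1 probe. *Ptgs2* ranged from 3.51 to 3.73 under MG132, from 3.64 to 3.74 under epoxomicin and from 2.08 to 2.17 under ONX0914, and *Acod1* from 1.83 to 2.03, from 1.45 to 1.56 and from 1.52 to 1.59. The count of 3 higher genes under ONX0914 became 2 where *Gch1* was 0.97 (75th percentile over detected probes), 0.98 (no scaling) or 0.99 (normexp without outlier spots).

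The median of all genes compared shifted from that of the reported setting to −0.27, −0.30 and −0.17 (MG132, epoxomicin, ONX0914) with normexp on all spots, to −0.20 under MG132 without scaling, and to −0.12 and −0.11 under MG132 and epoxomicin after a shift to the median. The median of the 7 enzyme genes moved under MG132 from 0.43 to 0.21 (normexp on all spots), 0.33 (shift to the median) and 0.24 (no scaling). With epoxomicin it moved from 0.67 to 0.29 (normexp on all spots) and 0.53 (normexp without outlier spots). Other settings changed which genes the median covered. Without a filter on dim probes, *Arg1*, *Arg2* and *Ido1* entered. The median of the 10 genes was then 0.40 under epoxomicin and 0.33 under ONX0914, where that of the 7 was 0.24. With the positive and significant call *Ido1* entered, and the median under epoxomicin was 0.44.

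With a 4-fold threshold, the 1 enzyme gene higher under epoxomicin and under ONX0914 was *Ptgs2*. Under MG132, *Ptgs2* (3.70) and *Acod1* (2.02) were higher. Shares of all genes were not calculated at the other thresholds and settings of this paragraph, so its counts only describe the lists. Without a filter, or with the positive and significant call, 1 enzyme gene was at least 2-fold lower under epoxomicin and 1 under ONX0914. In both cases this was *Ido1*, below the background call. For the 77 pathway genes, counts are given only where they differed from the reported count by more than a factor of 1.5. A 1.5-fold threshold gave 11 higher under MG132 and 5 under ONX0914, and 12, 15 and 4 lower under MG132, epoxomicin and ONX0914. A 4-fold threshold gave 0, 1 and 0 higher and 0 lower with each. Normexp on all spots gave 5 higher under epoxomicin and 2 under ONX0914, and 6, 9 and 4 lower. These counts are to be read beside the medians of all genes compared in that setting, −0.27, −0.30 and −0.17. The 1 gene higher under ONX0914 became 0 with normexp without outlier spots, the 75th percentile over detected probes, quantile normalization and no scaling. Of 2079 recomputed differences of the pathway genes, 70 changed sign with a move of at least 0.0870, 43 of them with normexp on all spots. Among differences of at least 2-fold, *Kmo* reversed with normexp on all spots, to −0.25 under MG132 and −0.18 under epoxomicin, as did *Tgm2* under MG132 (−0.29). The cause of these changes was not tested. Signals near the background, 14.7 to 20.3, leave changes of *Arg1*, *Arg2* and *Ido1* undetectable.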
